A study of Mus musculus with 8 samples.

Results

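The genes Hgf, Met, Hgfac, St14, Spint1, Spint2, Mst1 and Mst1r were followed in bulk RNA sequencing of mouse liver. They encode the hepatocyte growth factor (HGF) and macrophage-stimulating protein (MSP) ligands, their receptors, and proteases and inhibitors that act on the ligands. The 8 genes were chosen by name from the 35204 gene symbols of the table, and each of the 8 passed the minimum mean of 10 over all libraries that testing required, Mst1r only through the treated group. The table holds 8 poly-A libraries. The 3 control libraries came from untreated wild type C57BL/6J mice. A further 5 libraries, the TAZ-CCl4 group, came from wild type C57BL/6J mice given EF1a-TAZS89A by HTVI together with carbon tetrachloride (CCl4), injected 30 times, at 3 injections a week over 10 weeks. HTVI is usually short for hydrodynamic injection into the tail vein, which reaches mainly hepatocytes, and EF1a names a promoter that is active in most cell types. TAZ is a coactivator under the control of the Hippo pathway, S89A removes an inhibitory phosphorylation site, and CCl4 is a liver toxin. No group received the construct or CCl4 alone, so the effects of the 2 agents cannot be told apart, and the labels give the age of no animal.

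HGF and MSP are secreted as single chains that signal only after a serine protease cuts them into a disulphide-linked pair of chains. HGF acts on the receptor tyrosine kinase MET and is known in liver as a growth factor for hepatocytes that is made by stellate and endothelial cells. MSP, encoded by Mst1, is made by hepatocytes and acts on the related kinase RON, encoded by Mst1r. The gene Mst1 is distinct from the Hippo kinase gene Stk4, whose protein is also called MST1. The HGF activator, encoded by Hgfac, circulates in plasma as a product of the liver, and matriptase, encoded by St14, is a protease of epithelial cell surfaces. Both are held in check by the Kunitz-type inhibitors HAI-1 and HAI-2, encoded by Spint1 and Spint2.

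The promoters of Hgfac and Mst1, which fell together, and of Spint1, which had the largest rise of the 8 genes, are shown for the sequence next to their start sites. Each line gives 250 bases before to 50 bases after the RefSeq start, 5′ to 3′ on the plus strand of build GRCm38.p6. Capitals mark matches, on either strand, to 4 motifs that were searched: GGAATG for TEAD factors, TGANTCA for AP-1, GTTAAT for an HNF1 half-site and CAAAGTCCA for HNF4. No 2 matches overlapped.
Hgfac, chr5:35041259-35041558: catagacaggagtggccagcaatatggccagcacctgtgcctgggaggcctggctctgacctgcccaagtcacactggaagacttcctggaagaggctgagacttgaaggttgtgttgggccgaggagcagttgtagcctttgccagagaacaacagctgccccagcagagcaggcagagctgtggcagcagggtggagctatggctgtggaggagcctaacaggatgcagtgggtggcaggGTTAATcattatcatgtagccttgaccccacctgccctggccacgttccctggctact
Mst1, chr9:108080186-108080485: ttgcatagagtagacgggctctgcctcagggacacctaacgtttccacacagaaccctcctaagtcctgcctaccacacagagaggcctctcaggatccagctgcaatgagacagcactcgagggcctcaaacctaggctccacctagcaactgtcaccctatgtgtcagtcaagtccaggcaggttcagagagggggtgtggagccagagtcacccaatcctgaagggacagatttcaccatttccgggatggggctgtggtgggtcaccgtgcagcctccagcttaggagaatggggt
Spint1, chr2:119237110-119237409: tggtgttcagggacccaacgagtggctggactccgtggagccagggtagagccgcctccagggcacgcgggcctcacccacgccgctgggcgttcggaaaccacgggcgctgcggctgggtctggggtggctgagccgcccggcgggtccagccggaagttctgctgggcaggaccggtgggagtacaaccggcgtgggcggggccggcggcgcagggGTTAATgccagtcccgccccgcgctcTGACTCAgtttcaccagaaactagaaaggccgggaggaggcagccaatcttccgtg
Hgfac held GTTAAT from position -8 relative to the start. Spint1 held GTTAAT from position -32 and TGACTCA from position -6. Mst1 held none of the 4 motifs in this window. Over 32851 promoter windows of the same length, GTTAAT was found in 7.10%, TGANTCA in 7.81%, GGAATG in 14.7% and CAAAGTCCA in 0.475%. Promoters of 7 of the 8 genes were matched, and GGAATG and CAAAGTCCA were found in none of their windows. Of the genes that did not pass the test, Met held TGAGTCA from position -54 and the second of the Hgf windows held GTTAAT from position -94. Spint2 and Mst1r held none of the 4 motifs.

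The values are the authors' normalised counts, that is, estimated counts per gene divided by a scaling factor per library. Normalised totals, in M (mega) counts, were 29.8 to 35.1 in the controls and 12.4 to 14.2 in the TAZ-CCl4 group. Mitochondrial transcripts took 11.7% to 14.3% of the control signal and 3.66% to 6.96% of the TAZ-CCl4 signal. Wwtr1, the gene of TAZ, stood at 280 to 463 in the controls and 4339 to 9021 in the TAZ-CCl4 libraries. Groups were compared with limma on log2(value + 1), which understates the change of low genes, with p-values adjusted by the Benjamini-Hochberg method over all 14171 genes tested and a threshold of 0.05. At the deposited scaling 62.3% of all tested genes passed, 32.4% as higher and 29.8% as lower, and the median log2 fold change of all genes was 0.03. That median was 1.26 when the libraries were scaled to equal totals and 0.22 at equal upper quartiles. Fold changes are therefore given at the deposited scaling and, where the call or its sign differs, beside their value at equal totals, singly for the 8 genes and for single genes named below, and as counts for the lists. The labels assign the control and the TAZ-CCl4 libraries to different library projects, so project and group cannot be told apart. They do not say that each library is a separate animal, and the p-values cover only the spread among these libraries, which may in part be technical.

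Neither Hgf nor its receptor gene passed the test at the deposited scaling. Hgf (ENSMUSG00000028864.7, mm10 chromosome 5, 16553495 to 16620152) measured 32.6, 69.4 and 34.6 normalised counts in controls 1 to 3, and 101, 42.3, 94.0, 35.7 and 85.3 in TAZ-CCl4 libraries 1 to 5. The TAZ-CCl4 libraries split into 3 high and 2 low values, and both low values lay within the control range. The means were 45.5 ± 20.7 (SD, n = 3) and 71.8 ± 30.5 (SD, n = 5), and the fitted log2 change was 0.61 ± 0.42 (SE; limma, adjusted p = 0.233). At equal totals Hgf passed as higher, at 1.83 ± 0.42 (limma, adjusted p = 0.00192), which is 0.57 above the median of all genes at that scaling. After quantile normalisation the sign turned, to -0.36 (limma, adjusted p = 0.490). Met (ENSMUSG00000009376.15, chromosome 6, 17463800 to 17573980) measured 1044, 1329 and 1082 in controls 1 to 3, and 1213, 1007, 1120.1, 1121 and 1057 in TAZ-CCl4 libraries 1 to 5. The groups overlapped, and Met had the lowest relative spread of the 8 genes in the TAZ-CCl4 libraries, with a coefficient of variation of 7.03%. Its log2 fold change was -0.06 ± 0.12 (SE; limma, adjusted p = 0.711), and 1.19 at equal totals, where it passed but lay 0.07 below the median of all genes.

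The MSP gene fell, and its receptor gene was low and passed as higher with overlapping groups. Mst1 (ENSMUSG00000032591.15, chromosome 9, 108080436 to 108085003) measured 5402, 4465 and 5218 in controls 1 to 3, and 1201, 1229.7, 1689, 1215 and 1521 in TAZ-CCl4 libraries 1 to 5. Every TAZ-CCl4 value lay below every control value, and the means of 5029 ± 496 (SD, n = 3) and 1371 ± 222 (SD, n = 5) differed by a factor of 3.67. The log2 fold change was -1.88 ± 0.15 (SE; limma, adjusted p = 3.53e-06), and it stayed negative at equal totals, at -0.63. In bulk tissue, fewer cells of a type and less RNA per cell cannot be told apart. Rnf123 overlaps Mst1 by 2911 bases on the opposite strand and had means of 1800 in the controls and 730 in the TAZ-CCl4 libraries. The sources used here do not state whether the counting used strand, so reads of the 2 genes may not have been told apart. Mst1r (ENSMUSG00000032584.12, chromosome 9, 107906873 to 107920383) lies 160.1 kb from Mst1. It was listed at 0 in control 1 and stood at 17.7 and 9.26 in the other controls, against 41.2, 39.9, 14.0, 32.7 and 23.0 in the TAZ-CCl4 libraries. The groups overlapped in 1 library, TAZ-CCl4 library 3, which lay below control 2. The control mean was 9.0 ± 8.87 (SD, n = 3), or 13.5 without control 1 and 4.63 without control 2, and the TAZ-CCl4 mean was 30.1 ± 11.5 (SD, n = 5). The fitted log2 change was 2.33 ± 0.84 (SE; limma, adjusted p = 0.0327), for a gene that reached the minimum mean only through the group in which it was higher. Without control 1 the value was 1.07 and no longer passed, nor did it pass without TAZ-CCl4 library 1, 2 or 4.

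Of the activating proteases, the plasma enzyme fell and the membrane enzyme rose. Hgfac (ENSMUSG00000029102.9, chromosome 5, 35041509 to 35048461) measured 5146, 4970.1 and 5481 in controls 1 to 3, and 631, 1201, 1068, 1643 and 843 in TAZ-CCl4 libraries 1 to 5. The groups lay far apart, although the TAZ-CCl4 values differed among themselves more than the controls did, with coefficients of variation of 35.6% and 4.99%. The mean was 4.83 times higher in the controls, at 5199 ± 259 (SD, n = 3) against 1077 ± 384 (SD, n = 5), and the log2 fold change was -2.34 ± 0.26 (SE; limma, adjusted p = 2.87e-05). At equal totals it was -1.09. St14 (ENSMUSG00000031995.9, chromosome 9, 31089402 to 31131853) measured 46.7, 45.8 and 46.3 in controls 1 to 3, and 199, 306, 136, 284 and 224 in TAZ-CCl4 libraries 1 to 5. The controls were nearly equal, and the lowest TAZ-CCl4 value was above all of them. The means of 46.2 ± 0.458 (SD, n = 3) and 230.0 ± 68.0 (SD, n = 5) differed by a factor of 4.97, and the fitted log2 change was 2.23 ± 0.26 (SE; limma, adjusted p = 4.59e-05).

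Both inhibitor genes rose, Spint1 by the larger factor. Spint1 (ENSMUSG00000027315.13, chromosome 2, 119237362 to 119249527) measured 6.11, 25.07 and 24.98 in controls 1 to 3, and 336, 260.1, 133, 235 and 207 in TAZ-CCl4 libraries 1 to 5. Control 1 was the lowest library, and no TAZ-CCl4 value came near the control range. The means were 18.7 ± 10.9 (SD, n = 3) and 234 ± 74.1 (SD, n = 5), a factor of 12.5, and the log2 fold change was 3.74 ± 0.45 (SE; limma, adjusted p = 5.41e-05). Spint2 (ENSMUSG00000074227.12, chromosome 7, 29256323 to 29281912) measured 2074, 1799 and 2049 in controls 1 to 3, and 2750.1, 2509, 2710.4, 3436 and 2739 in TAZ-CCl4 libraries 1 to 5. The groups did not overlap, and TAZ-CCl4 library 4 was the highest. The means of 1974 ± 152 (SD, n = 3) and 2829 ± 353 (SD, n = 5) differed by a factor of 1.43, and the fitted log2 change was 0.51 ± 0.13 (SE; limma, adjusted p = 0.00588).

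**Figure D1:**
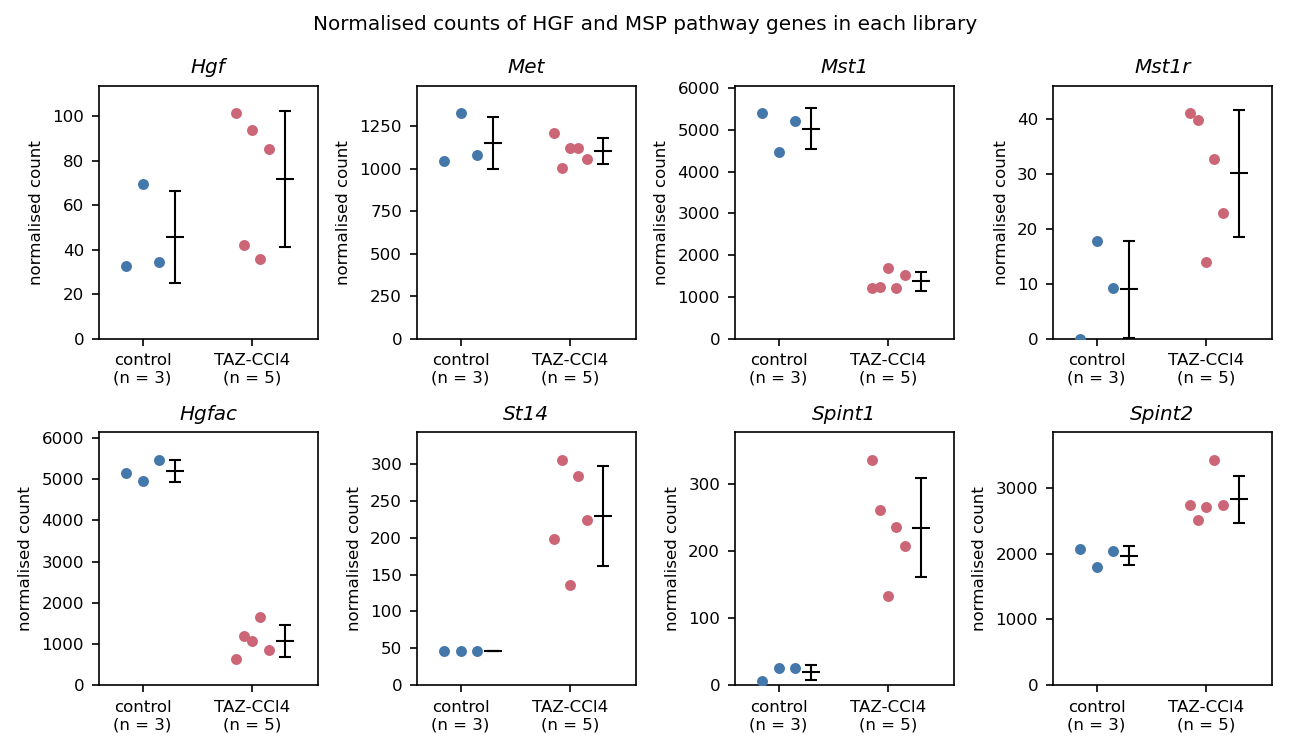
Normalised counts (linear axis from 0) of the 8 genes in each of 3 control and 5 TAZ-CCl4 libraries, with 1 point per library and the group mean ± SD beside it. Mst1 and Hgfac are lower and St14, Spint1 and Spint2 higher in every TAZ-CCl4 library than in any control, while Hgf, Met and Mst1r overlap.

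In all, 4 of the 8 genes, Mst1r included, passed as higher and 2 as lower, and for 5 of the 8 the groups did not overlap. Over all tested genes 62.3% changed and for 60.1% the groups did not overlap, 30.7% with the TAZ-CCl4 libraries higher and 29.4% with them lower, so the shares among the 8 genes are near those of the whole table. At equal upper quartiles 4 were higher and 2 lower, against 62% of all genes changed, 38.6% higher and 23.4% lower. At equal totals 6 of the 8 genes were higher and 2 lower, where 82.6% of all tested genes changed, 76.3% as higher and 6.37% as lower. After quantile normalisation 3 were higher and 2 lower, where 57.6% of all genes changed, 27.8% as higher and 29.8% as lower. Mst1r no longer passed there (limma, adjusted p = 0.239). Hgfac, Mst1, St14, Spint1 and Spint2 kept their direction and their call under all 18 alternatives that were run.

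**Figure D2:**
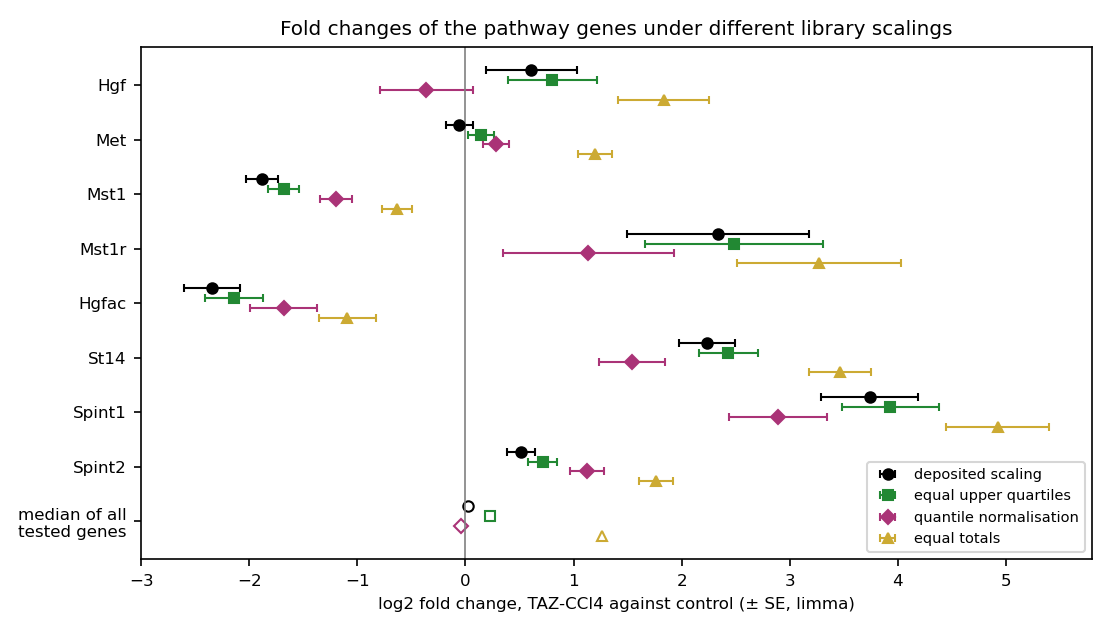
Log2 fold changes ± SE (limma) of the 8 genes, TAZ-CCl4 against control, at 4 library scalings, with the median of all 14171 tested genes in the lowest row (open symbols). Equal totals move every gene and the median (1.26) to the right, Hgfac and Mst1 stay below 0 at each scaling, and Met moves with the median except after quantile normalisation.

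Per kilobase of transcript the order of the levels changed between the groups. Counts were divided by the length of the longest principal coding transcript, 1384 bases for Spint2 to 6809 for Met. In the controls the 8 genes ran from Hgfac, at 2435 ± 121 normalised counts per kilobase (SD, n = 3), through Mst1 at 2223 ± 219, Spint2 at 1426 ± 110 and Met at 169 ± 22.7 to St14 at 14.2 ± 0.141, Hgf at 13.1 ± 5.98, Spint1 at 8.06 ± 4.70 and Mst1r at 1.91 ± 1.88. Neighbours whose control values overlapped were Hgfac and Mst1, St14 and Hgf, Hgf and Spint1, and Spint1 and Mst1r. In the TAZ-CCl4 libraries Spint2 came first, at 2044 ± 255 per kilobase (SD, n = 5), followed by Mst1 at 606 ± 98.1, Hgfac at 505 ± 180, Met at 162 ± 11.4, Spint1 at 101 ± 31.9, St14 at 70.6 ± 20.9, Hgf at 20.7 ± 8.81 and Mst1r at 6.38 ± 2.44. There, overlap between neighbours was found for Mst1 with Hgfac and for Spint1 with St14. The inhibitor gene Spint2 was thus below both plasma protein genes in the controls and above both in the TAZ-CCl4 libraries, with no overlap either way.

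Ratios of 2 genes within 1 library do not move with a scaling factor of that library, apart from the pseudocount. For 6 pairs the log2 ratio, with 1 added to each value, was compared between the groups by an exact two-sided permutation test on the absolute difference of means over the 56 splits, whose smallest possible p is 0.0179, with p-values adjusted over the 6 pairs. The ratio of Hgfac to Spint1, the HGF activator and its inhibitor, moved the most. Its log2 value was 9.50, 7.58 and 7.72 in controls 1 to 3, and 0.91, 2.20, 2.99, 2.80 and 2.02 in TAZ-CCl4 libraries 1 to 5, a difference of -6.08 (exact permutation p = 0.0179, adjusted p = 0.0268). The lowest control, at 7.58, lay far above the highest TAZ-CCl4 library, at 2.99.

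The ratio of matriptase to its inhibitors went opposite ways for the 2 inhibitors. St14 to Spint1 was lower in the TAZ-CCl4 libraries, with mean log2 ratios of 1.48 ± 1.09 in the controls (SD, n = 3) and -0.02 ± 0.42 (SD, n = 5; exact permutation p = 0.0179, adjusted p = 0.0268). The difference of -1.50 was -0.87 without control 1, in which Spint1 was lowest. St14 to Spint2 was higher, at -5.38 ± 0.10 in the controls (SD, n = 3) and -3.66 ± 0.46 (SD, n = 5; exact permutation p = 0.0179, adjusted p = 0.0268). Neither ratio had overlapping groups.

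For the ligand and receptor pairs, Mst1 to Mst1r fell by 4.22 on the log2 scale, from 9.76 ± 2.35 (SD, n = 3) to 5.54 ± 0.84 (SD, n = 5; exact permutation p = 0.0179, adjusted p = 0.0268), with no overlap. The difference was -2.90 without control 1, in which Mst1r was listed at 0. Mst1r had also reached the minimum mean only through the TAZ-CCl4 group. Hgf to Met stood at -4.71 ± 0.41 (SD, n = 3) and -4.04 ± 0.65 (SD, n = 5) and did not pass (exact permutation p = 0.179, adjusted p = 0.179). Of the receptor genes, Met to Mst1r was lower, at 7.63 ± 2.09 (SD, n = 3) against 5.24 ± 0.63 (SD, n = 5; exact permutation p = 0.0357, adjusted p = 0.0429). The groups overlapped, and the difference of -2.39 was -1.19 without control 1, in which Mst1r was listed at 0. After quantile normalisation none of the 6 ratios passed, with adjusted p from 0.0536 to 0.411. The adjusted p of a pair also depends on how many of the 6 pairs reach the smallest possible p.

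**Figure D3:**
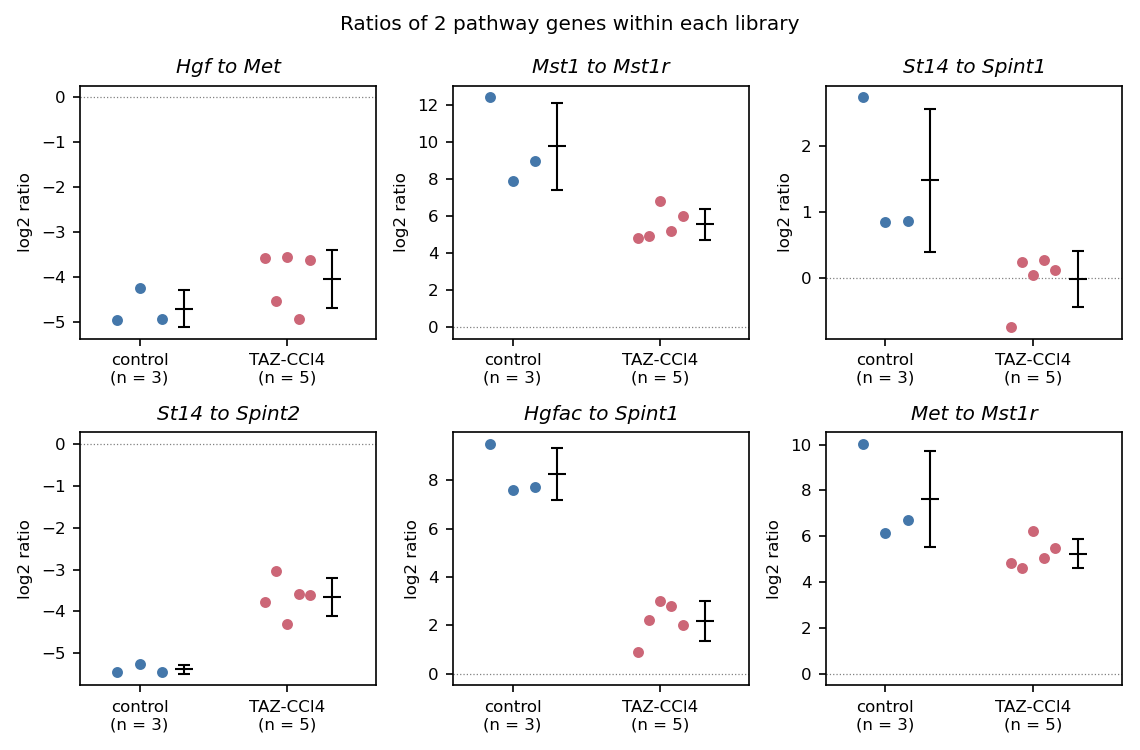
Log2 ratios of 2 pathway genes within each library, with 1 point per library and the mean ± SD of the 3 control and 5 TAZ-CCl4 libraries (axes do not all start at 0, and the dotted line marks equal values). Hgfac to Spint1 separates most, at 7.58 or above in the controls and 2.99 or below in the TAZ-CCl4 libraries, and Hgf to Met overlaps.

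The genes were next set beside markers of liver cell types. Of the defining markers of liver, 10 hepatocyte genes were in the table, and their summed level, in M counts, was 2.01 to 2.52 in the controls and 0.700 to 1.02 in the TAZ-CCl4 group. At the deposited scaling 9 of these 10 fell and Alb did not pass, and at equal totals 4 fell. Over all tested genes 29.8% were lower and 32.4% higher at the deposited scaling, and 6.37% lower and 76.3% higher at equal totals. All 7 cholangiocyte markers rose, although the call of Krt19 was lost without control 1 or 2 or TAZ-CCl4 library 1, 2 or 4, and their summed level went from 2299 to 2900 in the controls to 34922 to 121877, of which Spp1 made up the largest part. Spp1 is also made by macrophages. The 8 stellate markers gave 1 rise, of Pdgfrb, and 1 fall, of Ecm1, with summed levels of 2124 to 4131 and 1691 to 2533. At equal totals 5 of the 8 were higher and 1 lower. Of 7 sinusoidal endothelial markers 4 fell and Fcgr2b, which macrophages also express, rose, with sums of 1715 to 3606 and 1263 to 2367. At equal totals 2 of the 7 were higher and 0 lower, and none of the 4 falls passed there. Among the 4, Dnase1l3 had overlapping groups and lost its call without control 2 or 3 or TAZ-CCl4 library 1 or 4. All 7 macrophage markers rose, from sums of 379 to 590.0 to 5070 to 10066. No marker of these 5 lists was at 0 in all controls. The 8 myofibroblast and 5 vascular endothelial markers all rose as well, with sums of 936 to 1244 against 7036 to 16475 and of 634 to 902 against 1707 to 2400.0. The call of Acta2 was lost without control 1, and that of Postn without control 1 or TAZ-CCl4 library 3 or 5. The cholangiocyte marker Cftr and the myofibroblast marker Lox had control means of 4.96 and 4.06. Both reached the minimum mean of 10 only through the TAZ-CCl4 group. The part of these cell types in the changes of the pathway genes was not tested.

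For 10 pairs of a gene and a marker list, the mean log2 value of the list was subtracted from that of the gene in each library, and p-values were adjusted over the 10. Hgfac, which fell, did not separate from the hepatocyte markers, at -4.06 ± 0.13 (SD, n = 3) and -3.95 ± 0.75 (SD, n = 5; exact permutation p = 0.964, adjusted p = 0.964). TAZ-CCl4 library 4, at -2.65, was far above the other TAZ-CCl4 libraries, and without it the difference of 0.11 became -0.21. Mst1 was 0.57 higher relative to these markers and did not pass (exact permutation p = 0.0536, adjusted p = 0.107). Met, which did not pass by itself, was higher relative to them, at -6.24 ± 0.12 (SD, n = 3) and -3.84 ± 0.49 (SD, n = 5; exact permutation p = 0.0179, adjusted p = 0.0446), with no overlap. The hepatocyte list includes Cyp2e1, whose log2 fold change was -7.41 against a list median of -1.64. So large a fall pulls down the list mean in the TAZ-CCl4 libraries, and the comparisons with this list were not repeated without Cyp2e1.

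Hgf was higher relative to the sinusoidal endothelial markers, at -2.49, -2.51 and -2.97 in controls 1 to 3, and -1.14, -1.28, -0.95, -1.09 and -1.15 in TAZ-CCl4 libraries 1 to 5. The difference of 1.54 passed (exact permutation p = 0.0179, adjusted p = 0.0446). The 5 TAZ-CCl4 values lay close together, between -1.28 and -0.95, although Hgf itself split into high and low libraries. Relative to the stellate markers Hgf differed by 0.55 and did not pass (exact permutation p = 0.107, adjusted p = 0.153). The part of the falls among the sinusoidal markers themselves in this difference was not tested.

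Of the epithelial genes, St14 and Spint2 were lower relative to the cholangiocyte markers, although both rose by themselves. St14 went from -1.02 ± 0.18 (SD, n = 3) to -2.23 ± 0.44 (SD, n = 5) and Spint2 from 4.36 ± 0.09 to 1.44 ± 0.45, each with no overlap (exact permutation p = 0.0179, adjusted p = 0.0446 for each). Spint2, which stood above these markers in the controls, was set beside no other list. The markers themselves rose by a median log2 fold change of 3.31, against 2.23 for St14 and 0.51 for Spint2. The part of the rise of the markers in these differences was not tested. Spint1 stood at -2.51 ± 1.13 and -2.21 ± 0.32 relative to the same markers and did not pass (exact permutation p = 0.714, adjusted p = 0.794). The difference of 0.30 was -0.34 without control 1. Mst1r differed by -1.10 from the cholangiocyte markers and by -2.18 from the macrophage markers and did not pass (exact permutation, adjusted p = 0.402 and 0.149). Both passed with a pseudocount of 10 in place of 1, at -2.01 and -2.97 (exact permutation, adjusted p = 0.0298 for each). With a pseudocount of 0.1 they were -0.02 and -1.10 and did not pass, so these 2 differences depend on the pseudocount.

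**Figure D4:**
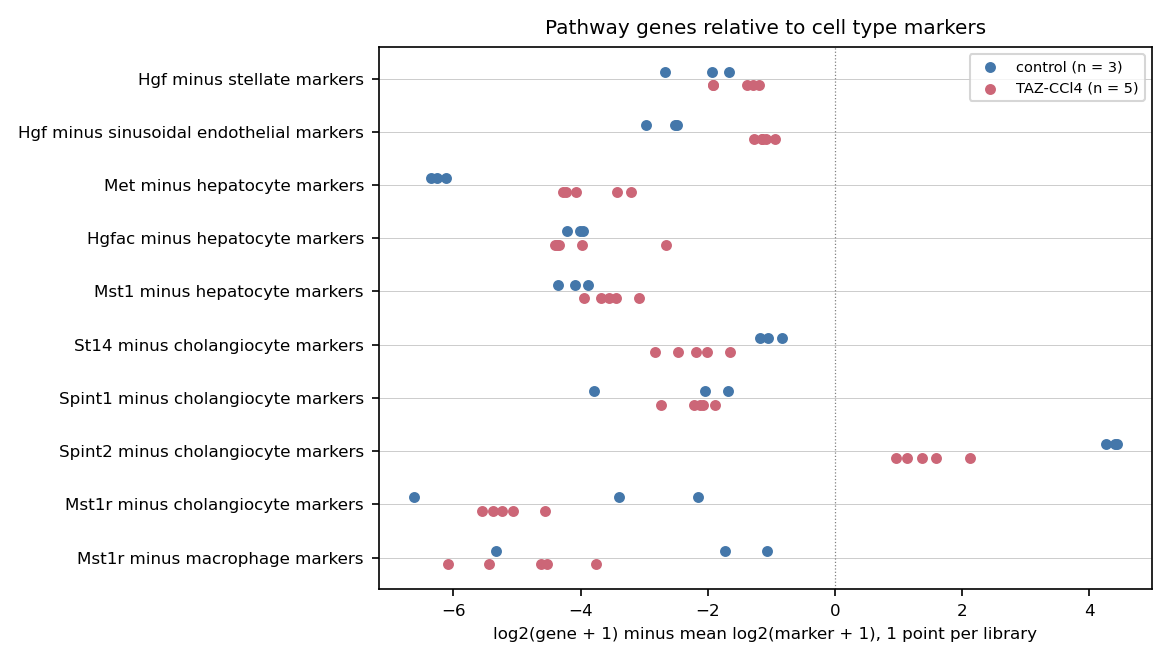
Log2 value of a pathway gene minus the mean log2 value of a marker list in each library (1 point per library, 3 control above and 5 TAZ-CCl4 below each line). Met against hepatocyte markers and Hgf against sinusoidal endothelial markers lie to the right in all TAZ-CCl4 libraries, and St14 and Spint2 against cholangiocyte markers to the left.

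Other proteases that cut the ligands or their activators moved in both directions. Of 9 tested, 4 rose and 5 fell, with a median log2 fold change of -0.90 against 0.03 over all genes, where 62.3% changed. The urokinase gene Plau rose from 11.9 ± 6.16 (SD, n = 3) to 430 ± 167 (SD, n = 5) and the tissue plasminogen activator gene Plat from 15.01 ± 2.03 to 325 ± 46.2. These were log2 changes of 5.05 ± 0.46 and 4.34 ± 0.20 (SE; limma, adjusted p = 8.38e-06 and 2.42e-07). The plasma enzymes went the other way, with F11, coagulation factor XI, at 2311 ± 191 and 128 ± 46.1 and Klkb1, plasma kallikrein, at 7835 ± 411 and 719 ± 341. Hpn, the gene of hepsin, a hepatocyte protease that cuts both ligands, fell from 9376 ± 667 to 5034 ± 467 (log2 fold change -0.90 ± 0.13). At equal totals Hpn passed as higher, at 0.35 (limma, adjusted p = 0.0464), below the median of all genes of 1.26. F12 and F2, which also fell, were above 0 there, at 0.24 each, and did not pass. The membrane proteases Tmprss2 and Prss8 rose, by 2.55 and 1.09. Tmprss13 was below the minimum level. At equal totals the counts were 5 higher and 2 lower, where 76.3% of all genes were higher and 6.37% lower.

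Among 4 tested serpin genes 2 rose and 2 fell, with a median of -0.17, beside 32.4% of all genes higher and 29.8% lower. At equal totals 2 were higher and 1 lower, where 76.3% of all genes were higher and 6.37% lower. Serpine2 rose by 0.93 ± 0.30 on the log2 scale (SE), a call that was lost without control 1 and without control 3. The antithrombin gene Serpinc1 fell by 1.85 and the C1 inhibitor gene Serping1 by 1.27 on the log2 scale, and the latter was -0.02 at equal totals. All 3 tested substrates of matriptase rose, with a median of 3.12, beside 32.4% of all genes. They were also higher at equal totals, where 76.3% of all genes were higher. The protease-activated receptor gene F2rl1 rose from 14.2 ± 8.73 (9.28 without control 3) to 347 ± 144 and Epcam, an epithelial adhesion molecule gene that is also in the cholangiocyte list, from 59.0 ± 7.32 to 580.1 ± 265. The third was Cdcp1, at 1.22.

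Of 9 co-receptor genes tested, 5 rose, 2 fell and 2 missed the threshold (median 1.40), beside 32.4% of all genes higher and 29.8% lower. At equal totals 7 were higher and 0 lower, where 76.3% of all genes were higher. Itga6, an integrin subunit gene, rose from 53.5 ± 20.4 to 705 ± 141 and Cd44, whose variants bind HGF with MET, from 59.7 ± 17.0 to 623 ± 108. The semaphorin receptor gene Plxnb1 rose by 1.40 and its ligand gene Sema4d by 2.85. Nrp1 fell, from 1216 ± 218 to 472 ± 124, at -1.39 and -0.14 at equal totals, and so did the glypican gene Gpc1, at -1.11 and 0.12, a call that was lost without control 1 and without control 2.

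Of 16 adaptor and kinase genes downstream of the receptors, 6 rose, 2 fell and 8 did not pass, and their median of 0.11 was close to the 0.03 of all genes. Over all genes 62.3% changed, 32.4% as higher and 29.8% as lower. The kinase gene Src stood apart, at 48.5 to 56.4 in the controls and 733 to 919 in the TAZ-CCl4 libraries (log2 fold change 3.95 ± 0.14 SE; limma, adjusted p = 1.04e-07). Gab1, the main docking protein of MET, rose from 179 ± 12.9 to 519 ± 58.3. Sos1 and Pik3r1 fell, at -0.80 and -0.71, with values of 0.45 and 0.54 at equal totals, where all 16 were higher. At that scaling 76.3% of all genes were higher. Grb2, which couples the receptors to RAS, did not pass, at 0.02, and was 1.27 at equal totals, where it passed and lay near the median of all genes of 1.26.

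Of 12 negative regulators 7 rose and 2 fell, while 3 did not pass, and their median was 0.69, beside 32.4% of all genes higher and 29.8% lower. At equal totals 10 were higher and 0 lower, where 76.3% of all genes were higher. Spry1 rose from 81.5 ± 32.4 to 342 ± 98.0 and Cbl, which marks MET for degradation, from 239 ± 63.4 to 587 ± 97.8. The phosphatase gene Dusp6 fell from 1769 ± 390 to 814 ± 317 and Lrig1 by 0.50. Both turned at equal totals, to 0.07 for Dusp6, which did not pass, and to 0.75 for Lrig1, which passed as higher (limma, adjusted p = 0.000811). At the deposited scaling the call of Lrig1 was lost without control 1 and without control 3. Adam10 and Adam17, whose proteases shed MET, rose by 1.02 and 0.68.

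Of 12 genes that respond to MAPK signalling, 8 rose and 3 fell, while Spry4 missed the threshold (median 1.07), beside 32.4% of all genes higher and 29.8% lower. When 1 library was left out, 6 to 8 rose. The call of Etv5, whose groups overlapped, was lost without control 1, 2 or 3 or TAZ-CCl4 library 1, 3 or 5. That of Spry2 was lost without control 1 or 3. The list shares 3 of its genes with the negative regulators. Ier3 rose from 12.97 ± 4.85 to 495 ± 211, and the AP-1 gene Fosl1 was listed at 0 in all 3 controls and at 14.5 to 28.0 in the TAZ-CCl4 libraries. Fosl1 and Etv4, the latter with a control mean of 9.83, reached the minimum mean of 10 only through the TAZ-CCl4 group. Ccnd1, the cyclin D1 gene, rose by 2.91. Phlda1 fell from 2192 ± 897 to 547 ± 402 and the immediate early gene Egr1 from 7313 ± 1260 to 2471 ± 1614, and the call of Egr1 was lost without control 3. Neither passed at equal totals, at -0.97 for Phlda1 and -0.65 for Egr1. There, 8 of the 12 were higher and 0 lower, where 76.3% of all genes were higher.

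**Figure D5:**
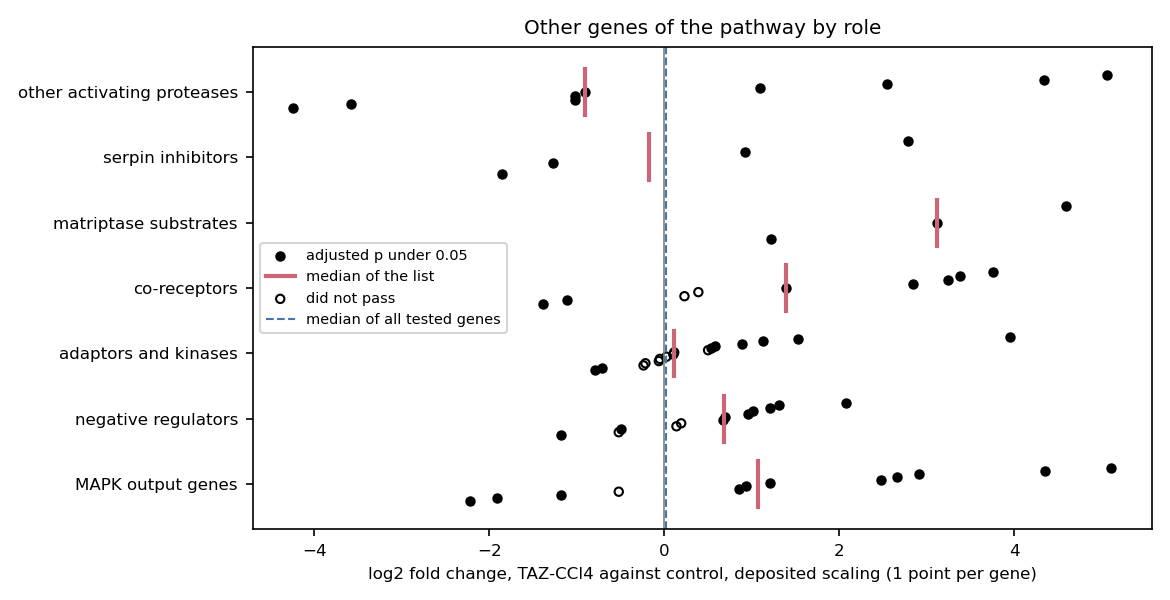
Log2 fold changes at the deposited scaling of the other pathway genes by role, with 1 point per tested gene (filled where the adjusted p was under 0.05), a bar at the median of each list and a dashed line at the median of all genes (0.03). Proteases and serpins spread to both sides, the adaptors and kinases centre near 0 with Src apart at 3.95, and the co-receptors have a median of 1.40.

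The genes whose values ran most like each of the 8 were sought among 11550 genes with a mean of at least 50, by the root mean square difference over the 8 libraries of log2 values relative to the control mean. The nearest were Il18bp for Hgf (0.23 log2 units), Sp3 for Met (0.06), Eva1a for Hgfac (0.17), Fam110c for St14 (0.21), Homer3 for Spint1 (0.31), Ptpn23 for Spint2 (0.07), Pmvk for Mst1 (0.09) and Map2 for Mst1r (0.65). The next were Chsy3 (0.27), Seh1l (0.07), mt-Cytb (0.21), Dtx3 (0.23), Tmem246 (0.31), Trim28 (0.09), Isoc2a (0.10) and Celsr2 (0.65), in the same order. Mst1r had no gene nearer than 0.65, against 0.31 or less for the other 7 genes. Its own group means of 9.0 and 30.1 lay below the minimum of 50, so genes at its level were not searched. The larger distance therefore does not show that its pattern was unusual.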

How the data were processed

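RNA of liver pieces was enriched for poly-A and read as paired ends of 100 bases, per the labels' protocols. The authors deposited 1 table of normalised counts, a signal that is neither whole nor scaled to a common total. Its name gives kallisto and DESeq2, and the build mm10 is given per the submitters' processing notes. Versions, annotation and filters: not given in the sources used here. Steps of whole reads, sought as multiples of the commonest low value (tolerance 0.03), fitted just 47.3% to 66.7% of the values under 10, so reads were not recovered, no count model was run and the depth is unknown.

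The members and gene lists were chosen with earlier results of these data known. Genes with a mean of at least 10 were compared with limma 3.58.1 (R 4.3.3, trended prior, log2(value + 1), 3 against 5 libraries, no covariate, Benjamini-Hochberg over 14171 genes). Ratios were compared by exact permutation tests (SciPy 1.17.1). Named genes are the 8 members, the 2 called genes of each pathway list with the largest rises and falls, some leading markers and the 2 genes most like each member, and other list members were named after their values were seen. Some genes of the lists are not reported here by name. The label numbers shared by both groups gave no sign of pairing (correlation of deviations -0.09 to -0.06 for the 3 pairs, and -0.09 to 0.07 for the 12 other combinations). So weak a check cannot exclude pairing. Positions come from GENCODE M21 of the same build, in which 34641 symbols were found, and promoters from RefSeq on GRCm38.p6. The hepatocyte marker Tf was not matched in the table. Alternatives covered pseudocounts of 0.1 and 10, no filter, 4 scalings, 2 limma settings, a replicate block and leaving out each library.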

Additional observations from a re-analysis of the deposited data

Results flagged for a closer look

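In all, 3 values were marked because 1 of 5 TAZ-CCl4 libraries lay far from the other 4, out of 24 such sets examined, and chance alone marks about 1 set in 20. Spint2 stood at 3436 in TAZ-CCl4 library 4 and at 2509 to 2750.1 in the others. The log2 ratio of St14 to Spint1 was -0.75 in TAZ-CCl4 library 1 and 0.03 to 0.27 in the others, and Spint1 was highest in that library. The log2 value of Hgfac relative to the hepatocyte markers was -2.65 in TAZ-CCl4 library 4 and -4.40 to -3.98 in the others, and Hgfac was highest in that library. The markers Cps1, Ass1, Pck1, Cyp2e1 and Hnf4a were also lowest there among the TAZ-CCl4 libraries. Alb, Ttr, Apoa1, Apob and Cebpa were lowest in other libraries. No explanation of these values was tested.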

How the results depend on the processing

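Under 18 alternatives the total of called genes and the counts of members stayed within 1.5 times, with 7615 to 8855 genes in all and 3 to 4 members higher and 2 lower when 1 library was left out. The split by direction did not: 4592 genes were higher and 4230 lower at the deposited scaling, 10808 and 903 at equal totals, and 8912 and 1512 when those totals left out Mup and mitochondrial genes. Counts in several lists moved by more than 1.5 times too. The replicate block, fitted on the 3 numbers that both groups share, gave 7280 genes, 3 members higher and 2 lower, and ended only the call of Mst1r among the members (limma, adjusted p = 0.0924). The block moved Hgfac relative to hepatocyte markers to -0.17, with no test. The numbers gave no sign of pairing the libraries, which does not exclude it. Mst1r also lost its call at a pseudocount of 0.1 (limma, adjusted p = 0.0569). Met changed sign to 0.14 at equal upper quartiles, 0.28 after quantile normalisation, 1.19 at equal totals and 0.78 when those totals left out Mup and mitochondrial genes, and ranged from -0.12 to 0.052 when 1 library was left out. Quantile normalisation also turned Hgf to -0.36, Hgf to Met to -0.64, Hgf to stellate markers to -0.039, Hgfac and Mst1 to hepatocyte markers to -0.84 and -0.35, and Spint1 to cholangiocyte markers to -0.33. It ended the calls of Mst1 to Mst1r at -2.33, St14 to Spint1 at -1.36, St14 to Spint2 at 0.42, Hgfac to Spint1 at -4.58 and Met to Mst1r at -0.86. St14 to Spint1 and Hgfac to Spint1 were nearest to the threshold (exact permutation, adjusted p = 0.0536 for each). Their adjusted p also depends on how many of the other pairs reach the smallest possible p. A pseudocount of 10 gave -0.035 for Spint1 and -2.01 for Mst1r relative to cholangiocyte markers and -2.97 for Mst1r relative to macrophage markers, and both Mst1r comparisons then passed. At a pseudocount of 0.1 these Mst1r values were -0.023 and -1.10, and neither passed. The cause was not tested.

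Leaving out 1 library lowers what the exact test can reach, to 0.0286 without a TAZ-CCl4 library and 0.0476 without a control, and after adjustment no marker comparison, and no pair without a control, kept its call. Met to Mst1r kept it in 1 of 8 such runs. The differences then ranged from -5.15 to -2.90 for Mst1 to Mst1r, -1.82 to -0.87 for St14 to Spint1, 1.56 to 1.88 for St14 to Spint2, -6.43 to -5.46 for Hgfac to Spint1 and -3.13 to -1.19 for Met to Mst1r. Against markers they ranged from 1.38 to 1.62 for Hgf and sinusoidal endothelium, 2.24 to 2.51 for Met and hepatocytes, -0.21 to 0.22 for Hgfac and hepatocytes, and for cholangiocytes -1.35 to -1.06 for St14, -0.34 to 0.71 for Spint1 and -3.10 to -2.81 for Spint2. The unknown depth limits what can be said of Mst1r, which was listed at 0 in 1 control.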
